A study of Homo sapiens with 6 samples.

Results

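The genes described here are 10 that supply newly made histones to chromatin: SLBP, NPAT and LSM11, which act on histone genes and histone mRNA, and the histone chaperones and their partners HAT1, NASP, ASF1A, ASF1B, CHAF1A, CHAF1B and HJURP. They were read by the 21 probe sets whose only gene symbol in the array annotation is one of these names, out of 19775 symbols with such a probe set on the array, and 0 probe sets carried a member's symbol beside another. The cells were 76N, a human mammary epithelial line described as normal, grown in DFCI-1 medium. 3 cultures were transfected with a control siRNA and 3 with an siRNA against Ecd, and each culture was read on 1 Affymetrix array. The samples came from 1 line, and no source used here gives the siRNA sequence, its dose or how long after transfection the RNA was taken. The comparison asks which transcripts differ between cells with lowered Ecd and control cells. Ecd is the product of ECD, the human counterpart of Drosophila ecdysoneless, known as a regulator of cell cycle entry.

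As background, a dividing cell makes most of its histones in S phase, when each new DNA strand has to be wrapped. Most of these mRNAs end in a stem-loop in place of a poly(A) tail, so they need their own transcription activator (NPAT), cleavage machinery (the U7 particle, of which LSM11 is a part) and stem-loop binding protein (SLBP). The new H3 and H4 proteins are then acetylated (HAT1), held in a soluble pool (NASP), passed on by ASF1A or ASF1B and laid down behind the replication fork by chromatin assembly factor 1, CAF-1 (CHAF1A and CHAF1B), while HJURP loads the H3 variant CENP-A at centromeres.

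The promoters of a closely related pair, ASF1A and ASF1B, are shown because these 2 transcripts differed in their response to the Ecd siRNA. Those of 2 further members, CHAF1A and HJURP, are shown beside them. All 10 members matched 1 entry each in the RefSeq promoter table (GRCh38.p14). Each window runs from 250 bases before to 50 after the transcript start, 5′ to 3′ on the strand of the gene. Capitals mark matches on either strand to 3 motifs of cell cycle promoters, namely E2F sites (TTTCCCGC, TTTCCCGG, TTTCGCGC, TTTCGCGG, TTTGCCGC, TTTGCCGG, TTTGGCGC or TTTGGCGG), the cell cycle gene homology region, CHR (TTTGAA), and CCAAT boxes (CCAAT). No motif's letters hold another motif's whole, but in CHAF1A 2 CCAAT matches on opposite strands overlap.
ASF1A (chr6:118893902-118894201, plus strand): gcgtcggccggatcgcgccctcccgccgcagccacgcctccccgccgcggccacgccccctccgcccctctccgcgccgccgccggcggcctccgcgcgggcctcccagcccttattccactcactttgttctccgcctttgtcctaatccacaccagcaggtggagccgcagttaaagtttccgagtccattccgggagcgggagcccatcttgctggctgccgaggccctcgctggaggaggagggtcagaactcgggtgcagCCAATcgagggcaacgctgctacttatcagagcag
ASF1B (chr19:14136540-14136839, minus strand): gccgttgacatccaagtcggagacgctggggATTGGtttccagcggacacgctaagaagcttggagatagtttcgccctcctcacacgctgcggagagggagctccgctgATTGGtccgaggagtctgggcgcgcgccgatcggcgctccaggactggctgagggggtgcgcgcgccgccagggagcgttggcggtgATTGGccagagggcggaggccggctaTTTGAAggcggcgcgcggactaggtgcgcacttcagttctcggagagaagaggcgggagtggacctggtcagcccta
CHAF1A (chr19:4402390-4402689, plus strand): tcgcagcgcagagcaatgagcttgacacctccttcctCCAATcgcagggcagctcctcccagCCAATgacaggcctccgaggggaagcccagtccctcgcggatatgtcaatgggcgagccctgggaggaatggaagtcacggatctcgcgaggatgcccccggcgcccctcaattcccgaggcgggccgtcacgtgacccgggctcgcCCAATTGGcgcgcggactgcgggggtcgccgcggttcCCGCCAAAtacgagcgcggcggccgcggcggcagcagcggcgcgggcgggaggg
HJURP (chr2:233854486-233854785, minus strand): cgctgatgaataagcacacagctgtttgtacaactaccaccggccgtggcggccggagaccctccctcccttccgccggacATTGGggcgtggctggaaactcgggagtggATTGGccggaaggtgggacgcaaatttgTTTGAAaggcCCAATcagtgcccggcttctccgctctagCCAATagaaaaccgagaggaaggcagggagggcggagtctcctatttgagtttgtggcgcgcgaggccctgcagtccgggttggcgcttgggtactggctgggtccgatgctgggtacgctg

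An E2F match was present in 2 of the 10 member windows, those of HAT1 and CHAF1A, against 6.19% of all 35116 promoters in the table. A CHR match was present in 3, those of ASF1B, HJURP and LSM11, against 15.2% of all. A CCAAT match was present in 7, against 34.6%. There were 4 such matches each in HJURP and CHAF1A, 3 in ASF1B, 2 in NPAT and 1 each in NASP, HAT1 and ASF1A. Of the 7 members that were lower after Ecd siRNA in the test below, 5 had a CCAAT match, 2 a CHR match and 2 an E2F match. Among the other 3 members these counts were 2, 1 and 0. The windows of SLBP and CHAF1B held none of these letters. A match describes the sequence only, and whether any factor binds there was not measured.

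Before the members, the targeted transcript was read in every array. The ECD probe set gave MAS5 signals of 1076.6, 1011.4 and 1007.2 in the control cultures and 588.9, 599.8 and 542.5 in the Ecd siRNA cultures, which left 55.9% of the control mean. Its log2 change was -0.82 (SE 0.095, limma adjusted p = 0.000177), and the two-sided exact permutation test gave p = 0.1, the smallest value that 3 against 3 arrays allow. Signals across the 6 arrays were of one scale, with medians of 128.7 to 147.6 and correlations over genes of 0.976 to 0.98 for arrays of 1 group against 0.95 to 0.959 across groups, and no array stood apart. The basal keratins KRT5 and KRT14 had mean signals of 16435 and 21386 in control cultures. Of the luminal keratins, KRT8 and KRT18 had mean signals of 2243 and 5701.5 there. KRT19 had 29.8 over all arrays, under the filter signal of 90.2. Of the 5 endothelial markers 2 were bright enough to test, PECAM1 and TEK, with control means of 476.4 and 303.1. CDH5, VWF and KDR had mean signals of 51.8, 32.7 and 76.5 over all arrays, also under the filter. Of the leukocyte markers LYZ alone was tested, with a control mean of 94.7. PTPRC, CD3E and CD14 had mean signals of 28.9, 73.8 and 75.2 over all arrays. All of these are bulk measurements, in which fewer cells of a kind and less RNA per cell cannot be told apart.

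Of the 10 members, 7 fell after Ecd siRNA, LSM11 rose in its brightest probe set, and ASF1A and NPAT did not pass the test. HJURP fell to 16.1% of its control signal, NASP to 34.0%, ASF1B to 40.7% and CHAF1A to 41.5%, while HAT1 (61.4%), CHAF1B (66.7%) and SLBP (67.1%) kept most of theirs. All 10 were bright enough to be tested, and each was read here by the probe set with the highest mean. Changes are differences of log2(signal + 16), tested with limma over 14614 genes and adjusted by the Benjamini-Hochberg method, and "rose" or "fell" means an adjusted p under 0.05. Over all tested genes 11% fell and 10.1% rose by this rule. The 7 that fell had groups that did not overlap, as had LSM11, and over all tested genes 18.4% stood apart in the lower direction and 18.1% in the higher. The members' median log2 change was -0.64, beside 0.0081 over all tested genes. These members were named with earlier results of the data known, so their share is a description.

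**Figure D1:**
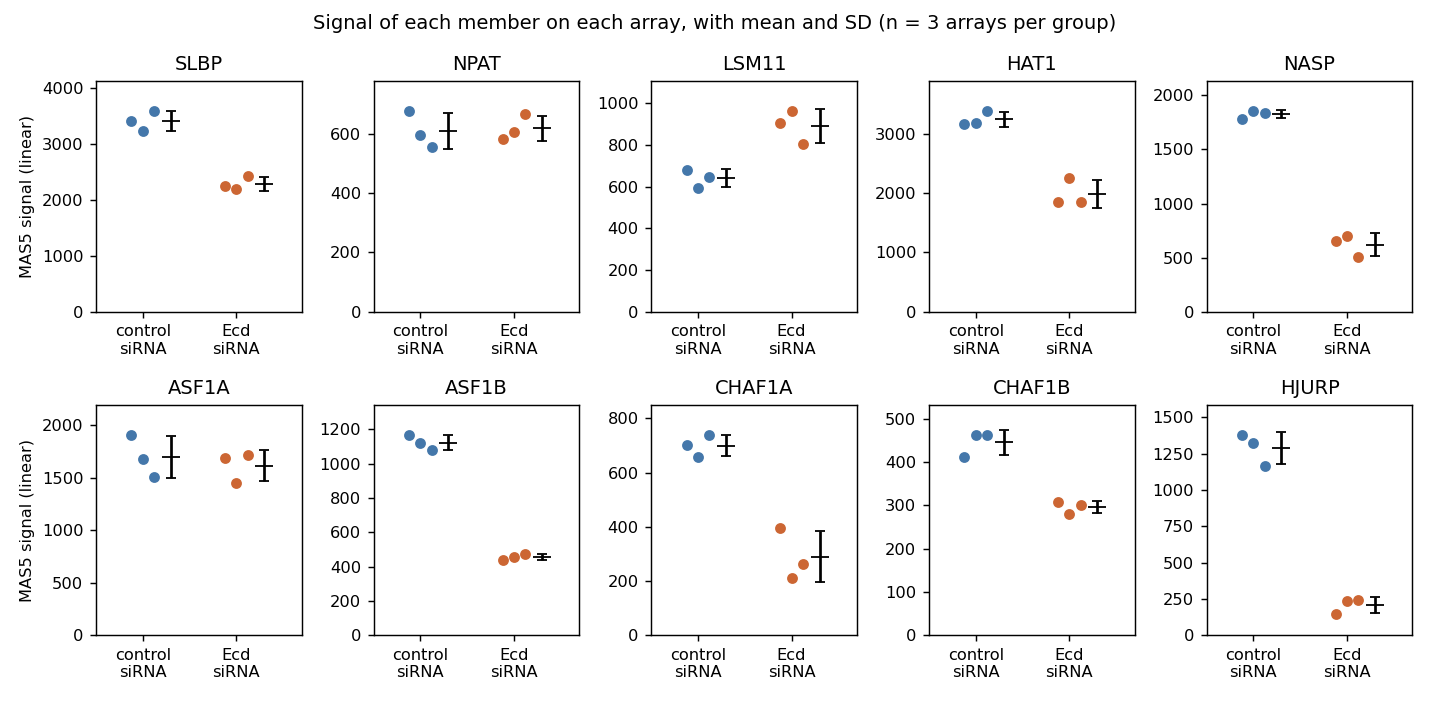
MAS5 signal on a linear axis from 0 for each of the 10 members, 1 dot per array, control siRNA in blue and Ecd siRNA in orange, with the mean and SD of 3 arrays as black bars. In SLBP, HAT1, NASP, ASF1B, CHAF1A, CHAF1B and HJURP every Ecd siRNA dot lies below every control dot, in LSM11 every one lies above, and in NPAT and ASF1A the groups overlap.

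The 3 regulators of histone genes and histone mRNA did not move together. SLBP, which binds the stem-loop and accompanies the mRNA from cleavage to translation, had signals of 3410.0, 3239.6 and 3591.1 in control arrays and 2245.6, 2196.5 and 2429.7 in Ecd siRNA arrays. The groups were well apart, and SLBP fell by 0.57 on the log2 scale (SE 0.076, limma adjusted p = 0.000423). SLBP had 1 probe set, an _s_at design, which can bind transcripts of more than 1 gene.

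NPAT, the cyclin E-CDK2 substrate that switches on histone gene transcription, had signals of 676.0, 596.1 and 555.9 in control arrays and 581.8, 604.7 and 665.9 in Ecd siRNA arrays. The groups covered the same range. The log2 change was 0.02 with a 95% interval of -0.23 to 0.27 (limma adjusted p = 0.931), so a fall of the size seen in SLBP lay outside the interval. Its second probe set over the filter, 211584_s_at, was at -0.02 (interval -0.45 to 0.42 in the fit over probe sets). The third, 211585_at, had mean signals of 24.2 and 8.87, below the filter signal of 90.2, and was not tested.

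ATM, the DNA damage kinase gene, is transcribed away from NPAT across a shared promoter region, and the 2 promoter windows overlap by 72 bases. Its brightest probe set gave 739.4, 636.1 and 594.1 in control and 609.4, 797.8 and 558.8 in Ecd siRNA arrays, a log2 change of -0.01 (95% interval -0.34 to 0.31, limma adjusted p = 0.969). Like those of NPAT, its groups overlapped. The sign of either value changed between settings, and neither passed in any setting run. 2 dimmer ATM probe sets had groups that did not overlap, 1553387_at at 0.83 (adjusted p = 0.101) and 1554631_at at -0.44 (adjusted p = 0.291), in opposite directions and not past the threshold.

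LSM11, a Sm-like protein gene of the U7 particle that cleaves histone pre-mRNA, was the member that rose. Its brightest probe set, 226826_at, gave 680.7, 594.9 and 645.1 in control arrays and 904.8, 962.1 and 805.1 in Ecd siRNA arrays. The lowest Ecd siRNA value was above the highest control value, and the log2 change was 0.46 (SE 0.11, limma adjusted p = 0.0109). The other 3 LSM11 probe sets showed no such difference. They were dimmer, with control means of 237.4, 198.9 and 170.5, and their changes were 0.09 (interval -0.45 to 0.63), -0.0083 (-0.46 to 0.44) and -0.09 (-0.68 to 0.50). In the mean of all LSM11 probe sets the change was 0.11 and did not pass (adjusted p = 0.698), so the rise rests on 1 of 4 probe sets. In the fit over all probe sets that one passed at adjusted p = 0.0181, and lost its call without control replicate 2 (adjusted p = 0.0642) or without Ecd siRNA replicate 2 (0.073).

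Among the genes that ready H3 and H4 for deposition, HAT1 and NASP both fell. HAT1, whose enzyme acetylates new H4, had signals of 3164.0, 3174.5 and 3380.2 in control arrays and 1852.1, 2259.6 and 1852.0 in Ecd siRNA arrays. These groups did not overlap, and the log2 change was -0.71 (SE 0.091, limma adjusted p = 0.000368). NASP, whose product binds H3 and H4 and keeps a reserve of them, had signals of 1783.4, 1854.3 and 1837.4 against 658.1, 699.0 and 504.4. All 3 Ecd siRNA arrays were far below the controls, and the log2 change was -1.55 (SE 0.12, limma adjusted p = 1.14e-05).

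NASP was read by 2 probe sets over the filter, and both fell. The dimmer one, 201969_at, went from 299.8, 309.3 and 280.5 to 160.4, 156.7 and 148.8, a smaller log2 change of -0.87 (adjusted p = 0.00472 in the fit over probe sets). Another, 242918_at, had signals of 9.1 to 80.1 with overlapping groups and was not tested. Averaged over all 3, which takes in that dim probe set, the change was -0.62 and did not pass (adjusted p = 0.109).

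The ASF1 paralogs, which hand H3-H4 dimers to the deposition complexes, parted ways. ASF1B had signals of 1167.4, 1117.9 and 1079.2 in control arrays and 436.6, 456.0 and 475.1 in Ecd siRNA arrays. Both groups were tight, and ASF1B fell by 1.27 on the log2 scale (SE 0.096, limma adjusted p = 9.05e-06). ASF1A had 1909.2, 1675.8 and 1507.4 in control arrays and 1686.4, 1449.8 and 1714.2 in Ecd siRNA arrays, with wide overlap. Its log2 change was -0.07 (95% interval -0.30 to 0.17, limma adjusted p = 0.73), and its second probe set, 203427_at, was at -0.06 (interval -0.27 to 0.15).

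The difference between the paralogs was tested within arrays. ASF1B minus ASF1A, as a difference of log2(signal + 16), was -0.70, -0.58 and -0.48 on control arrays and -1.91, -1.63 and -1.82 on Ecd siRNA arrays. The groups were wholly apart, and the shift was -1.20 (SE 0.10), at the smallest p the exact permutation test allows (two-sided p = 0.1, and 0.1 when adjusted over 5 pairs). Only the shift is read here, since probe sets differ in their own brightness.

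Both CAF-1 subunit genes fell. CHAF1A, the large subunit that carries the contact with PCNA, was read by 3 probe sets over the filter, and all 3 fell. The brightest, 214426_x_at, gave 702.3, 658.6 and 739.5 in control and 395.9, 210.9 and 264.9 in Ecd siRNA arrays, a log2 change of -1.27 (SE 0.19, limma adjusted p = 0.00105). The control arrays were close together and the Ecd siRNA arrays spread widely, with replicate 1 the highest. 203976_s_at changed by -1.65 and 203975_s_at by -0.93 (adjusted p = 0.000559 and 0.0061 in the fit over probe sets). The fourth, 229808_at, had mean signals of 23.0 and 10.4 and was not tested, and the 3 others are _s_at or _x_at designs, so no CHAF1A probe set without those suffixes gave a test.

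CHAF1B, the subunit that binds ASF1, had signals of 410.9, 461.5 and 462.7 in control arrays and 308.6, 280.5 and 300.8 in Ecd siRNA arrays. The groups did not overlap, and the log2 change was -0.56 (SE 0.13, limma adjusted p = 0.00991). In the fit over all probe sets it passed (adjusted p = 0.0149), but not without control replicate 2 (0.0573), control replicate 3 (0.0509) or Ecd siRNA replicate 2 (0.0517). CHAF1B minus CHAF1A shifted by 0.71 (SE 0.23) between the groups, with no overlap and the smallest allowed exact permutation p of 0.1. The Ecd siRNA arrays had differences of -0.34, 0.39 and 0.17 and so scattered more than the controls, which had -0.75, -0.50 and -0.66.

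HJURP, the chaperone of centromeric CENP-A, fell furthest of the 10 members. Its signals were 1379.6, 1324.3 and 1167.4 in control arrays and 144.3, 237.2 and 241.2 in Ecd siRNA arrays. The highest Ecd siRNA array stood far below the lowest control array, and the log2 change was -2.58 (SE 0.18, limma adjusted p = 5.13e-06). Ordered by change, HJURP was 33rd among the falls of 14614 genes, NASP 156th, ASF1B 214th and CHAF1A 215th, while HAT1 was 672nd, SLBP 978th and CHAF1B 1012th. The intervals of ASF1B and CHAF1A overlapped, as did those of SLBP and CHAF1B, whereas the intervals of HJURP (-2.97 to -2.18) and NASP (-1.81 to -1.28) did not meet.

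**Figure D2:**
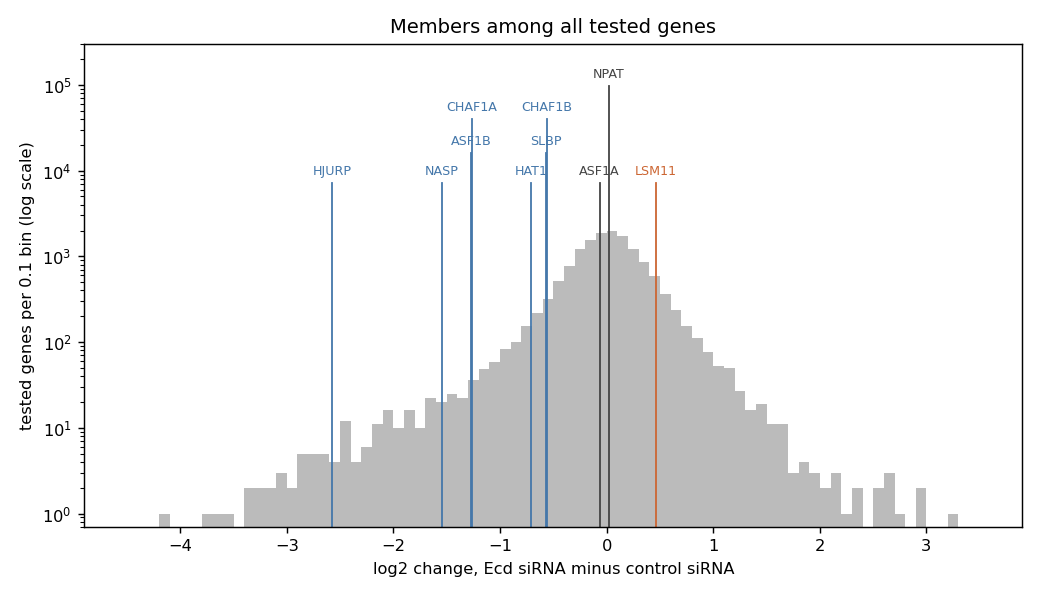
Histogram of the log2 change (Ecd siRNA minus control siRNA) of the 14614 tested genes in bins of 0.1, counts on a log axis, with a vertical line for each member (blue fell, orange rose, grey not past the threshold; line height only separates the names). HJURP at -2.58 lies in the thin left tail, NASP, ASF1B and CHAF1A lie between -1.55 and -1.27, and ASF1A and NPAT lie at the centre.

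The 3 other pairs were compared in the same way. SLBP minus NPAT shifted by -0.59 (SE 0.11) and SLBP minus LSM11 by -1.04 (SE 0.13), while HAT1 minus NASP shifted by 0.84 (SE 0.11). In each of these the groups did not overlap, and the exact permutation p was again at its floor of 0.1, also after adjustment over 5 pairs. These shifts depend on the probe sets. When all probe sets of both genes were averaged, SLBP minus NPAT was at -0.39 (exact permutation p = 0.2), SLBP minus LSM11 at -0.69 (p = 0.1 in the same exact test) and HAT1 minus NASP at -0.084 (exact permutation p = 0.9). These averages take in NPAT 211585_at and NASP 242918_at, both below the filter. With probe sets without _s_at or _x_at preferred, where NASP was read by 201969_at, HAT1 minus NASP was at 0.16 (exact permutation p = 0.3). In that setting SLBP minus NPAT stayed at -0.59 and SLBP minus LSM11 at -1.04.

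**Figure D3:**
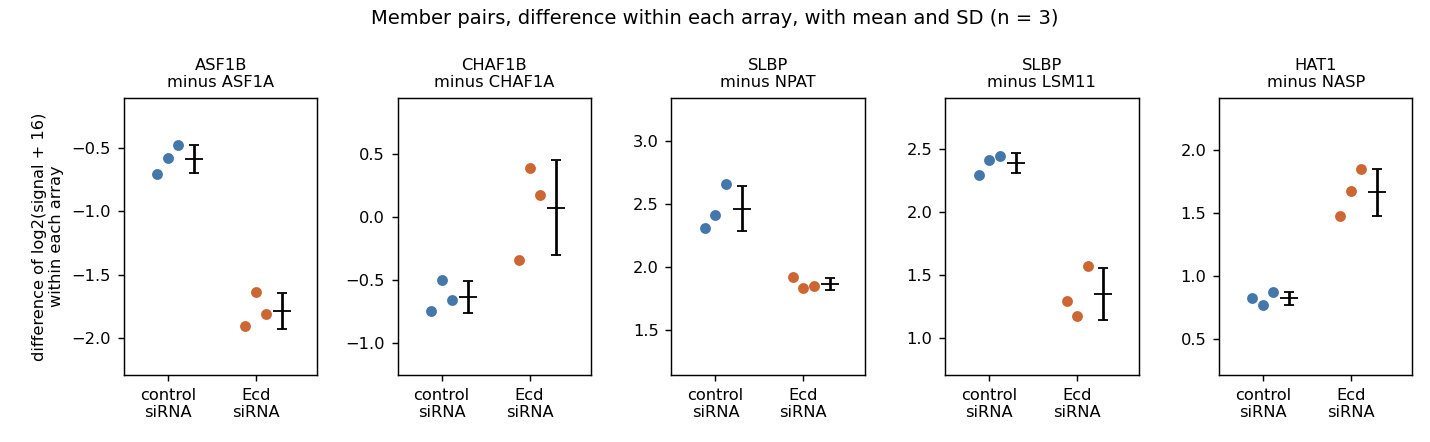
Difference of log2(signal + 16) between 2 members within each array, 1 dot per array, with the mean and SD of 3 arrays per group; each panel spans the same height. The shift from control to Ecd siRNA is -1.20 for ASF1B minus ASF1A, 0.71 for CHAF1B minus CHAF1A, -0.59 for SLBP minus NPAT, -1.04 for SLBP minus LSM11 and 0.84 for HAT1 minus NASP.

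Counted by single probe set, 18 of the 21 passed the filter on dim signals, of which 10 fell, 1 rose and 7 did not pass the threshold. Over all 32772 probe sets tested 7.66% fell and 7.33% rose. The 10 that fell belong to 7 genes, and in the genes with several tested probe sets (NPAT, LSM11, ASF1A, NASP and CHAF1A) LSM11 was the only one whose probe sets received different calls. The 3 untested probe sets had mean signals of 37.7 or less.

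**Figure D4:**
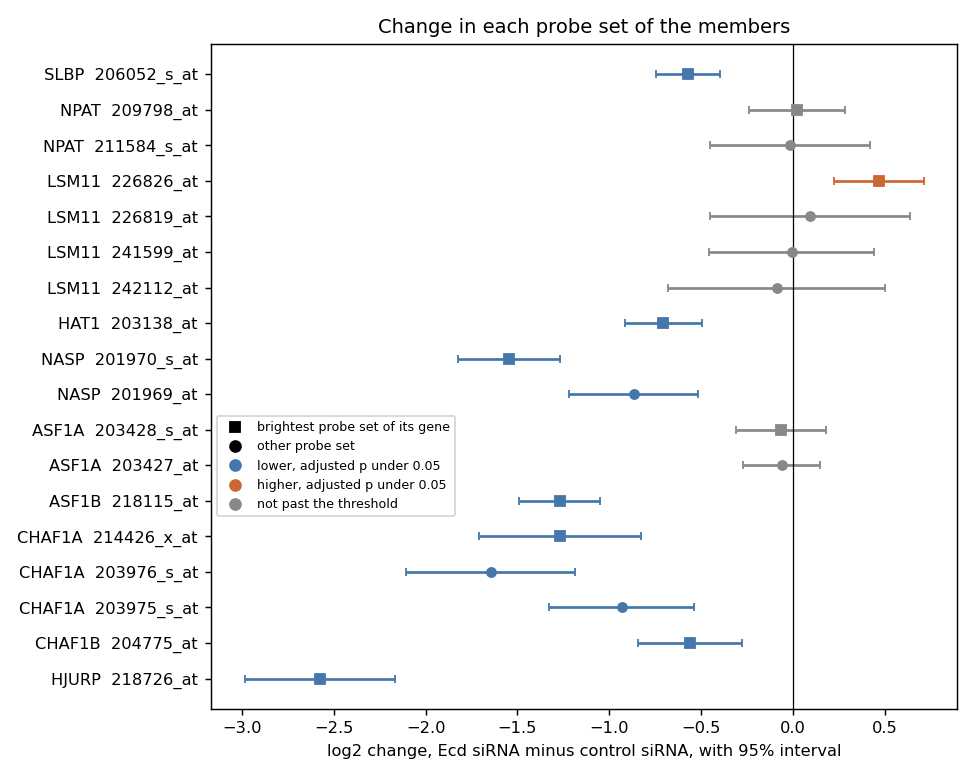
Log2 change with its 95% interval (limma, fit over all probe sets) for the 18 member probe sets over the filter, grouped by gene; squares mark the brightest probe set of a gene and colours the call. The 3 CHAF1A and both NASP probe sets lie left of 0, the NPAT and ASF1A intervals all span 0, and 1 of 4 LSM11 intervals lies right of 0.

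Other genes of histone supply were read from a list of 48 written by role. 46 were tested. Of these, 22 fell, 2 rose and 22 missed the threshold, and their median log2 change was -0.19 beside 0.0081 over all tested genes. Over all tested genes 11% fell and 10.1% rose, to be set beside this count and those by role below. The rest of the list was not analysed here. The 3 tested genes of the centromeric histone and its loading all fell, as HJURP did. CENPA, the centromeric H3 itself, changed by -0.93, MIS18A by -1.09 and OIP5, the partner of MIS18A, by -2.00.

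Among partners of deposition at the fork, 5 of 7 fell. TONSL, a reader of new H4 at replication forks, went from a mean signal of 179.5 to 31.5 (log2 change -2.13, or -1.36 with a pseudocount of 64 and -1.28 averaged over its probe sets). Its fall is counted among the 5, but its Ecd siRNA signals of 18.7, 17.2 and 58.5 lay under the filter signal of 90.2. It passed the filter only through its control arrays, and was not tested with the filter at the upper 40% or without control replicate 2. PCNA, the sliding clamp to which CAF-1 binds, went from 6028 ± 620.9 to 2500 ± 680.3 (SD, n = 3 each; log2 change -1.30). The chaperone gene DNAJC9 fell by 0.61 in its brightest probe set, an _s_at design, but was at 0.28 in a probe set without that suffix (adjusted p = 0.499) and did not pass when its probe sets were averaged (adjusted p = 0.0773). RBBP4, the remaining CAF-1 subunit, was at -0.09 (limma adjusted p = 0.488), unlike CHAF1A and CHAF1B, though that difference was not tested.

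Calls among the chaperones that lay down H3.3 outside replication went both ways. Of 6 tested, HIRA fell (-0.47), ATRX (0.45) and CABIN1 (0.56) rose, and 3 did not pass. Beside the 11% and 10.1% over all tested genes, 6 genes are too few to read these counts as a result for the group. Averaged over its probe sets, CABIN1 was at 0.28 and lost its call (adjusted p = 0.0762). Of 13 general histone chaperones, 6 fell and 0 rose, with a median of -0.18. NPM3, of the nucleoplasmin family, changed by -1.20, the FACT subunit gene SSRP1 by -0.71 and ANP32E, a remover of H2A.Z, by -0.53.

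Upstream of NPAT, both E cyclin genes and CDK2 fell, and the NPAT transcript did not pass the threshold. The NPAT protein, which is the substrate of cyclin E-CDK2, was not measured. CCNE2 changed by -1.36, CCNE1 by -0.59 and CDK2 by -0.90, the last without a call when its probe sets were averaged (-0.98, adjusted p = 0.163). In all, 4 of 6 genes of histone gene transcription fell. Of 11 genes of histone mRNA processing, translation and decay, 3 fell (ERI1 at -0.66, CSTF2 at -0.51 and CPSF3 at -0.25) and 0 rose, and LSM10, the U7 partner of LSM11, was at -0.14 (adjusted p = 0.683). HIRA, ATRX, RBBP4, CCNE1, LSM10 and these 3 genes are named after their values were seen.

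**Figure D5:**
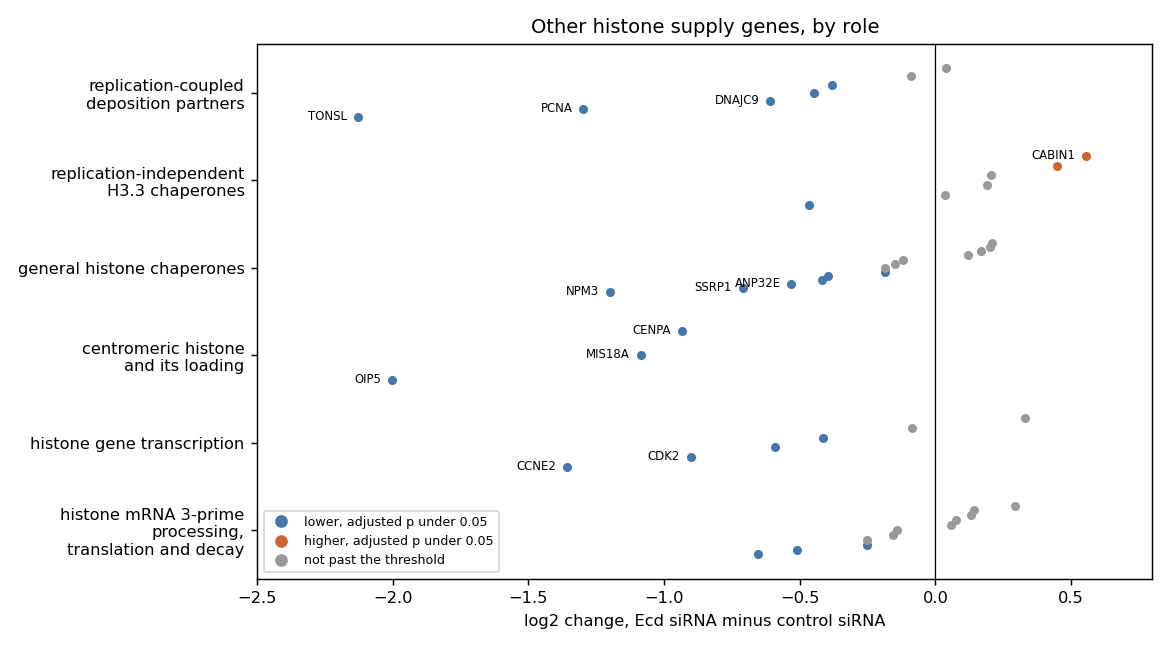
Log2 change of the 46 tested genes of the wider list, 1 dot per gene in rows by role, blue for fell, orange for rose and grey for not past the threshold; the 12 with the smallest adjusted p are labelled. The 3 centromeric genes lie at -0.93 or lower, and the H3.3 chaperones lie on both sides of 0.

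Proliferation markers changed in the direction of the 7 members that fell. All 6 on the list, PCNA among them, fell, with a median of -2.35, and their summed signal was 19282 to 19903 in control arrays and 4983 to 6146 in Ecd siRNA arrays. MKI67, the Ki-67 gene, changed by -2.23 and TOP2A by -2.74, and MCM2, a subunit of the replicative helicase that also holds histones, by -0.85. Their part in the members' falls was not tested. Of the 9 fibroblast markers, 5 were tested, of which FAP (1.03) and COL1A1 (0.52) rose and 0 fell, with a median of 0.11 and with COL1A2 at -0.17 and THY1 at -0.32. The summed fibroblast signal was 4126 to 4742 in control and 6961 to 7862 in Ecd siRNA arrays. FAP alone went from a mean of 2610 to 5334 within that sum. COL3A1, LUM, PDGFRA and PDGFRB had mean signals of 39.1, 77.3, 61.2 and 89.2, below the filter. Of 4 tested basal mammary markers, CDH3 rose (0.38) and 3 did not pass, with summed signals of 50413 to 56876 and 53255 to 59136. Of 4 tested general and luminal epithelial markers, KRT18 fell (-0.52, limma adjusted p = 0.00197), CDH1 rose (0.25, limma adjusted p = 0.00914) and 2 did not pass, with summed signals of 19888 to 20393 and 20245 to 20379. The part of these 3 lists in the members' changes was not tested either.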

How the data were processed

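The table deposited by the authors held linear intensity values, 1 for each of 54675 probe sets on each array, made with MAS5 per the submitters' processing notes and without detection calls. Its version and target level are not given in the sources used here. Trimmed means were 500.05 on every array, so the arrays had been set to one level, which hides any global change, and no rescaling was added. Probe sets were named from the platform annotation. Each gene was read by its brightest single-symbol probe set (mean of 6 arrays), and tested if that mean was among the top 60% of the array (signal 90.2). log2(signal + 16), which understates changes of dim transcripts, was fitted in limma 3.58.1 (lmFit, eBayes with trend, R 4.3.3) without covariates, with Benjamini-Hochberg adjustment over all genes and a threshold of 0.05. A second fit took every probe set. The fit was tested on simulated data. Replicates are biological per the labels, so p-values rest on the spread of 6 cultures, whose number limits the precision. Scan dates are not given there either.

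Genes named by rule were all 10 members, ECD and ATM, and, of the wider list's genes that passed, the 12 of lowest adjusted p. HIRA, ATRX, RBBP4, CCNE1, LSM10, ERI1, CSTF2 and CPSF3 were named outside this rule, after their values were seen. Members and lists were chosen with earlier results of these data known. The alternatives were quantile normalization, a common median, pseudocounts of 1 and 64, no filter or the upper 40%, other choices of probe set, no trend, array weights, a replicate block and each array left out.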

Additional observations from a re-analysis of the deposited data

How the results depend on the processing

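7 members fell in every setting except where CHAF1A had no testable probe set (probe sets without _s_at or _x_at preferred) or NASP lost its call (the mean of probe sets), with 6 in each. The count of members that rose was 0 with the mean of probe sets and 1 otherwise. In the fit over probe sets it was 0 without the intensity trend, where LSM11 had an adjusted p of 0.0521, and ran from 0 to 1 as single arrays were left out. Rises among the other histone supply genes numbered 1 with the mean of probe sets, 1 without the trend and 3 with quantile normalization, against 2. Falls among these genes ran from 17 of 43 tested (probe sets without _s_at or _x_at preferred) to 24 of 46 (quantile normalization), against 22 of 46. With 1 array left out they ran from 18 to 21. Signs of uncalled values turned. ATM was at 0.0045 with quantile normalization, 0.028 with the mean of probe sets, 0.17 in probe sets without those suffixes and -0.16 to 0.091 with 1 array left out. NPAT was at -0.18 with the mean of probe sets, -0.00040 with array weights and -0.041 to 0.096 with 1 array left out, and ASF1A ran from -0.15 to 0.020 there. The NPAT mean takes in 211585_at, below the filter, whose log2 difference was -0.54. DNAJC9 turned to 0.28, and HAT1 minus NASP to -0.084, as given above. The cause was not tested.

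Same-numbered arrays had correlated deviations of -0.0026, 0.084 and 0.157, so the numbers were not taken to pair the cultures. With the replicate block 7 members fell and 1 rose, and 21 of the other histone supply genes fell. The number of arrays and the nearness of dim signals to background limit what could be seen, above all for probe sets below a signal of 90.2.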
